A study of Mus musculus with 4 samples.

Results

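Wide single-exon m6A peaks of mouse liver are described here: peaks that lie in 1 exon block and are 700 bp or longer. They were chosen by their width alone, and 702 of the 14057 peaks listed for Alkbh5flox/flox livers (FF) and 821 of the 14693 peaks listed for Alkbh5-HKO livers (HKO) met the rule, 1523 of 28750 peaks in all. The peaks come from methylated RNA immunoprecipitation sequencing, in which fragments of about 100 nt that carry N6-methyladenosine (m6A) are pulled down with an antibody (IP) and sequenced beside the input RNA. Both genotypes were fed normal chow and sampled at 9 weeks of age, and for each the liver RNA of 3 mice was pooled. The FF animals carry the floxed Alkbh5 alleles, and the labels give neither what HKO stands for nor which part of Alkbh5 is deleted, in which cells or by which Cre. The 4 libraries are an IP and an input for each genotype, so there was 1 pool per genotype, no replicate, and no test between genotypes. The depth of the libraries is unknown, because a peak list holds no read totals.

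In most messenger RNAs, m6A is placed in the nucleus by the METTL3 and METTL14 methyltransferase complex within a short consensus around GGAC, and it gathers in long internal exons and near stop codons. Exon junction complexes that sit beside splice sites keep the methyltransferase away from short internal exons, so long exons and intronless genes are the places where many sites can lie side by side. ALKBH5 is a demethylase that removes m6A from RNA in the nucleus. A peak caller that tests successive windows joins neighbouring enriched windows of an exon into 1 peak, so a wide peak is a stretch over which enrichment over input was continuous, and its number of methylated adenosines is not given.

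The sequences available for these peaks were limited to windows around gene starts (250 bases before to 50 bases after an annotated start, from RefSeq, build GRCm38.p6). The windows below are 5 of the 7 that lie whole inside a wide peak, chosen after their letters were seen to show stretches with several GGAC and 1 with none. Rbbp6 (an E3 ubiquitin ligase that takes part in pre-mRNA processing) and Tlcd1 (a membrane protein that affects phospholipid composition) had the peak in both lists, Rangap1 (the GTPase-activating protein of Ran) and Kansl2 (a subunit of a histone acetyltransferase complex) in FF, and the Naa80 window lies in a wide HKO peak that the list assigns to Hyal1, which overlaps Naa80 on the same strand. The windows are chr7:122970314-122970613 (plus strand), chr11:78178408-78178707 (plus strand), chr15:81729870-81730169 (minus strand), chr15:98534220-98534519 (minus strand) and chr9:107580419-107580718 (plus strand). Capitals mark GGAC, the core of the m6A consensus, searched on the transcribed strand only.
Rbbp6: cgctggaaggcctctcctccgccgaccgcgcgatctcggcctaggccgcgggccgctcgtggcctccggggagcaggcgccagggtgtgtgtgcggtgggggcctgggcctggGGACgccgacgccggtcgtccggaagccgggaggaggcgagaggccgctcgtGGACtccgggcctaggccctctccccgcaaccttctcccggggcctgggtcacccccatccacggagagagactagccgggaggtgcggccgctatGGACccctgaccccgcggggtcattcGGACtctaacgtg
Tlcd1: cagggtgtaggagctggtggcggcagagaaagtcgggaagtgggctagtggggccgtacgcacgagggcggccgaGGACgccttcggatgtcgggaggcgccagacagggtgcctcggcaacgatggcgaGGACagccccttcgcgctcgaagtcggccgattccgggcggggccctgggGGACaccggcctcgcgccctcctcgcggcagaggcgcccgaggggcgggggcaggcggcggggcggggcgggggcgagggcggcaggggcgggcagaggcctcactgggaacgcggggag
Rangap1: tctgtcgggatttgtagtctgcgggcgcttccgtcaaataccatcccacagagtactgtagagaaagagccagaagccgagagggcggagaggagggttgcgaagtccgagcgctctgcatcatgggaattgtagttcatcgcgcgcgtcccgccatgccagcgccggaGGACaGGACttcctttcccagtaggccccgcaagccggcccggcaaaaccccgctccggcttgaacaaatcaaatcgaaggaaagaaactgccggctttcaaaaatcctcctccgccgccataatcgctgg
Kansl2: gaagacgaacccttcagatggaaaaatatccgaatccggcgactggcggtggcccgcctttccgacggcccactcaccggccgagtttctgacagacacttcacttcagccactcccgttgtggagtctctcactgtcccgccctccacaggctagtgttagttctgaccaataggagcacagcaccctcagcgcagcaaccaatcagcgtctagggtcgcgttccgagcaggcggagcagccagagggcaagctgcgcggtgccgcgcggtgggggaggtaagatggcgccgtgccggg
Naa80: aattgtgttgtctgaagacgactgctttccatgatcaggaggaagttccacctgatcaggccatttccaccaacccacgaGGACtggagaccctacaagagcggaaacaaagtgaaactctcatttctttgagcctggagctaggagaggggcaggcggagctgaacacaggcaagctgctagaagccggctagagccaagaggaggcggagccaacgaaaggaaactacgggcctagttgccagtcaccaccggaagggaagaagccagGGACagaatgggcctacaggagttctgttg
The Rbbp6 window holds 4 GGAC, of which 2 are GGACT. The Tlcd1 window holds 3, and the Rangap1 and Naa80 windows hold 2 each, and the Kansl2 window holds 0. The other 2 windows, of Msl1 and 4430402I18Rik, hold 2 and 3. GGAC occurs in 65.6% and GGACT in 26.1% of all 32817 start windows, so a match is common and describes the letters only.

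The peak over the Rbbp6 window was 869 bp in FF (chr7:122969936-122970804) and 839 bp in HKO (chr7:122969936-122970774), with the same upstream limit. The Tlcd1 peak was 958 bp in FF and 898 bp in HKO. The Rangap1 peak was 985 bp in FF, where HKO had a widest overlapping peak of 449 bp. The Kansl2 peak was 805 bp in FF, over a widest HKO peak of 418 bp. The Hyal1 peak was 869 bp in HKO, where FF had one of 480 bp. Over all parts of wide peaks that fall in start windows, GGAC occurred 25 times in 4141 bases in FF (6.04 per kb) and 13 times in 1439 bases in HKO (9.03 per kb). The same count gave 5.38 and 5.76 per kb in the narrower single-exon peaks of the FF and HKO lists, 3.82 per kb in all start windows, and 4.20 per kb in the 50 bases of each that lie after the start. Without Rbbp6 and Tlcd1, which hold 9 GGAC in each list, the wide peaks gave 16 in 3370 bases in FF (4.75 per kb) and 4 in 638 bases in HKO (6.27 per kb). These bases come from 44 FF and 11 HKO wide peaks, a small and start-biased share of them, and no interval is given for the densities. Start windows can overlap each other, and bases that they share could enter more than once in all of these counts.

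Wide peaks made up 4.99% of the FF list (95% Wilson interval 4.65 to 5.37, counting error only) and 5.59% of the HKO list (5.23 to 5.97). They lay on 684 FF genes and 792 HKO genes, and held 14.9% and 16.3% of all peak sequence. Some stretches are listed under more than 1 gene name, such as Adnp with Gm20716, Ddi2 with Rsc1a1 and Evi2 with Evi2b, so the wide peaks form 697 separate FF regions and 816 separate HKO regions. Peak limits move in steps: 84.4% of single-exon FF widths and 84.7% of HKO widths were within 1 bp of a multiple of 30 bp. By choice of the rule the wide peaks were long, with a median of 869 bp in FF and 891 bp in HKO, against 240 bp for the other single-exon peaks of either list. Lengths of 1000 bp or more were listed for 205 FF and 251 HKO peaks.

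The members just inside the threshold were Slc15a3 (713 bp), Hspa5 and Dnajc30 (714 bp each) in FF and Sertad1 (707 bp), Exosc6 (708 bp) and Ddit4 (710 bp) in HKO. Just outside lay peaks of 691 bp, among them Plxnb2, Golgb1 and Qpctl in FF and Serpind1, Cxxc5 and Plekho1 in HKO. Golgb1, which encodes the Golgi protein giantin, shows how the threshold divides like peaks: its 691-bp FF peak overlapped an HKO peak of 751 bp.

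The fold enrichment and q-value of each peak are the authors' own and describe peaks within a list only. For wide FF peaks the fold had a median of 17 (quartiles 11 and 28.8), beside 8.62 for the other single-exon FF peaks. In the HKO list the medians were 23.1 for wide and 10.2 for other single-exon peaks. The median log10 q was -54.0 for wide FF peaks and -56.6 for wide HKO peaks, beside -6.29 and -6.89 for the others. Width, which chose the peaks, and q are linked in such a test, and no more is read from them. In the FF list the highest fold was that of Gja4 (219), the gap junction protein connexin 37 of arterial endothelium, where the HKO peak was listed at 32.0. In the HKO list it was that of Wdr20 (346), a partner of deubiquitinases, where the FF peak was listed at 37.0. Such pairs come from separate IPs and give no direction of change.

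**Figure D1:**
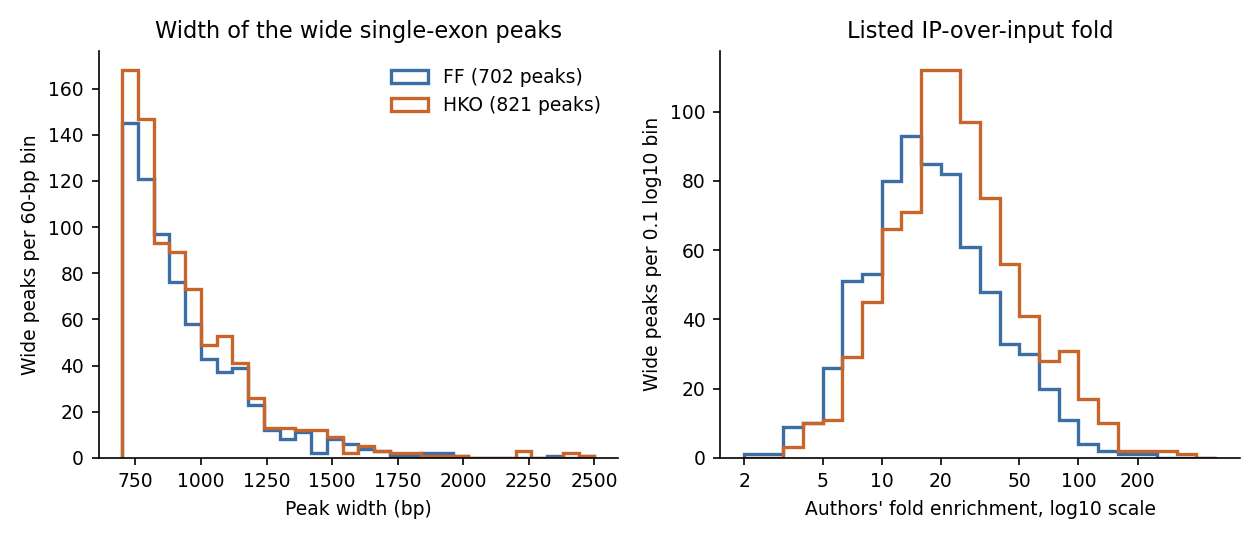
Histograms of the width in bp (left) and of the authors' fold enrichment over input on a log10 axis (right) for the 702 FF and 821 HKO wide peaks. Both lists thin out steadily from the threshold at 700 bp, and the HKO folds (median 23.1) sit to the right of the FF folds (median 17).

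Nearly all wide peaks had a counterpart. An HKO peak overlapped 700 of 702 wide FF peaks (99.7%, 99.0 to 99.9), and an FF peak overlapped 815 of 821 wide HKO peaks (99.3%, 98.4 to 99.7). Among all peaks of the lists, 25.2% of FF peaks and 28.5% of HKO peaks had no overlapping peak in the other list. The overlap followed width within each list: 44.1% of FF single-exon peaks under 150 bp had a counterpart, 95.3% of those from 300 to under 500 bp and 98.3% of those from 500 to under 700 bp. In HKO the shares were 31.4%, 89.2% and 97.5%. A longer peak offers more bases to overlap and has a smaller q, and their parts in this trend were not tested.

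The 2 wide FF peaks with no HKO counterpart were on Pank1 and Alkbh5. Pank1 encodes a pantothenate kinase of coenzyme A synthesis, and its peak (chr19:34878599-34879408, minus strand) was 810 bp long with a fold of 16.4. HKO had 3 peaks elsewhere on Pank1. The Alkbh5 peak (chr11:60537983-60538702, plus strand) was 720 bp long (fold 5.22, log10 q -10.1), and its middle was 660 bp downstream of the start of the gene. HKO had no peak on Alkbh5 at all, the gene targeted in these mice, so the missing counterpart there cannot be told apart from a loss of the transcript itself.

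The 6 wide HKO peaks with no FF counterpart were on F5, Zfp36l1, Chrna4, Rtp3, Frg2f1 and Col27a1. F5 encodes coagulation factor V, and its 840-bp peak (chr1:164192737-164193576, plus strand) was listed with fold 26.4 and log10 q -86.0. It lay beside an FF peak of 300 bp elsewhere in the gene. Zfp36l1, an RNA-binding protein that destabilises AU-rich messages, had a 956-bp peak with a fold of 7.68, and FF had 2 peaks elsewhere on the gene. Chrna4, a nicotinic receptor subunit, was without an FF peak anywhere in the gene, and its 955-bp HKO peak had a fold of 12. Rtp3 (805 bp, fold 37.3), Frg2f1 (746 bp, fold 28.9) and Col27a1 (750 bp, fold 8.49) had other FF peaks outside the stretch. Their log10 q was -23.9, -8.82 and -4.6, beside a median of -56.6 over all wide HKO peaks.

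A counterpart was often wide as well. Among wide FF peaks, 469 of 702 (66.8%, 63.2 to 70.2) overlapped a wide HKO peak, and among wide HKO peaks 470 of 821 (57.2%, 53.8 to 60.6) overlapped a wide FF peak. The remaining 231 FF and 345 HKO peaks overlapped only peaks outside the rule, whose widest member had a median width of 541 bp and 540 bp. The median wide FF peak was covered by HKO peaks over 94.8% of its bases, and the median wide HKO peak by FF peaks over 89.2%. Coverage under 50% was found for 24 FF and 50 HKO peaks that had a counterpart.

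The overlaps formed 480 pairs of wide peaks. Both limits lay within 60 bp of each other in 250 pairs (52.1%, 47.6 to 56.5), and 32 pairs had identical limits. Pde4b, which encodes a cyclic AMP phosphodiesterase, was 778 bp in both lists with every base shared, and its listed fold was 66.2 in FF and 270 in HKO. The HKO peak was the wider in 264 pairs (55.0%), the FF peak in 158 (32.9%), and 58 were equal. Over pairs the rank correlation of FF and HKO width was 0.673 and that of the listed folds 0.358, both between lists that share the same transcripts and gene models. Pairs were admitted only where both widths were 700 bp or more, so these width values describe the chosen pairs only. No width background over all overlapping peaks is given, and stretches listed under several gene names enter more than once. The listed fold was higher in HKO in 62.1% of pairs, beside 60.7% of all overlapping FF peaks, so the wide pairs are close to the background in that respect. Gdf2, which encodes the liver cytokine BMP9, had the widest FF peak (2480 bp) and an HKO peak of 2420 bp with the same upstream limit (chr14:33944689, plus strand). Tmem127, a regulator of mTOR signalling, had 1971 bp in FF and 1911 bp in HKO, with both limits further upstream in HKO.

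**Figure D2:**
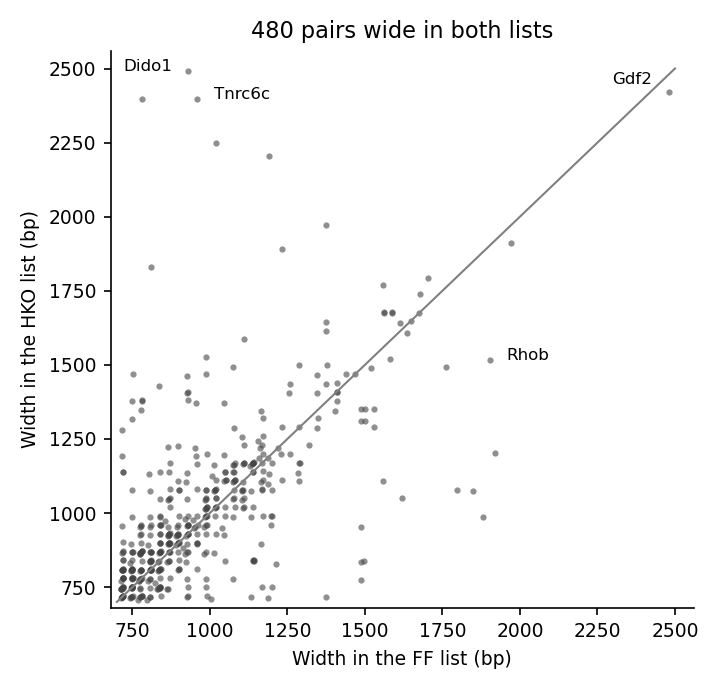
Width in bp in the FF list (horizontal) against the HKO list (vertical) for the 480 pairs of overlapping wide peaks, with the line of equal width. Many pairs lie close to the line (Gdf2: 2480 and 2420 bp), while Dido1 and Tnrc6c lie far above it and Rhob below it.

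Other stretches were joined in 1 list and split in the other. Peaks of the other list formed 2 or more separate stretches under 123 wide FF peaks (17.5%, 14.9 to 20.5) and 159 wide HKO peaks (19.4%, 16.8 to 22.2), and 3 or more under 6 and 9. Counterparts that share bases, such as a stretch listed under several gene names, were counted once. Dido1, a chromatin-associated protein, had the widest HKO peak, 2490 bp with a fold of 104 (chr2:180659192-180661681, minus strand), where FF had 3 peaks of 510, 601 and 931 bp. Tnrc6c, a scaffold of microRNA silencing, had 2397 bp in HKO and 3 FF peaks, 2 of them wide (780 and 960 bp). Plin4 went the other way. This lipid droplet coat protein had FF peaks of 2336 bp (fold 77.5) and 1019 bp, and HKO had 6 peaks of 181 to 481 bp on the gene. The 4 of them under the larger FF peak covered 47.7% of it. Prg4, which encodes lubricin, had a 2211-bp HKO peak that 2 FF peaks covered over 21.7%. Plin4 and Prg4 carry tandem repeats in their long exon, so reads there may be shared between repeat copies and the limits are uncertain. The read depth, which bears on where a stretch is broken, is unknown here.

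Apob, the structural protein of very low density lipoprotein, held the most wide peaks of any gene in the HKO list: 5, with a summed width of 6085 bp. FF had 2, of 840 and 1019 bp. The stretch runs over about the same bases of the gene in both lists, which had 10 FF and 9 HKO peaks on Apob in all. The widest HKO peak there was 2247 bp (chr12:8009696-8011942, plus strand) with a fold of 14.0, and the FF peaks beneath covered 58.7% of it. Ankrd11, a chromatin regulator with a very long exon, had 3 wide peaks in each list. Plec (plectin, a cytoskeletal linker) had 2 in each, of 1921 and 1170 bp in FF and 1201 and 1200 bp in HKO. Tnks1bp1 and Kat6a had 2 wide HKO peaks and no wide FF peak, and Btbd9 had 2 wide FF peaks and no wide HKO peak.

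**Figure D3:**
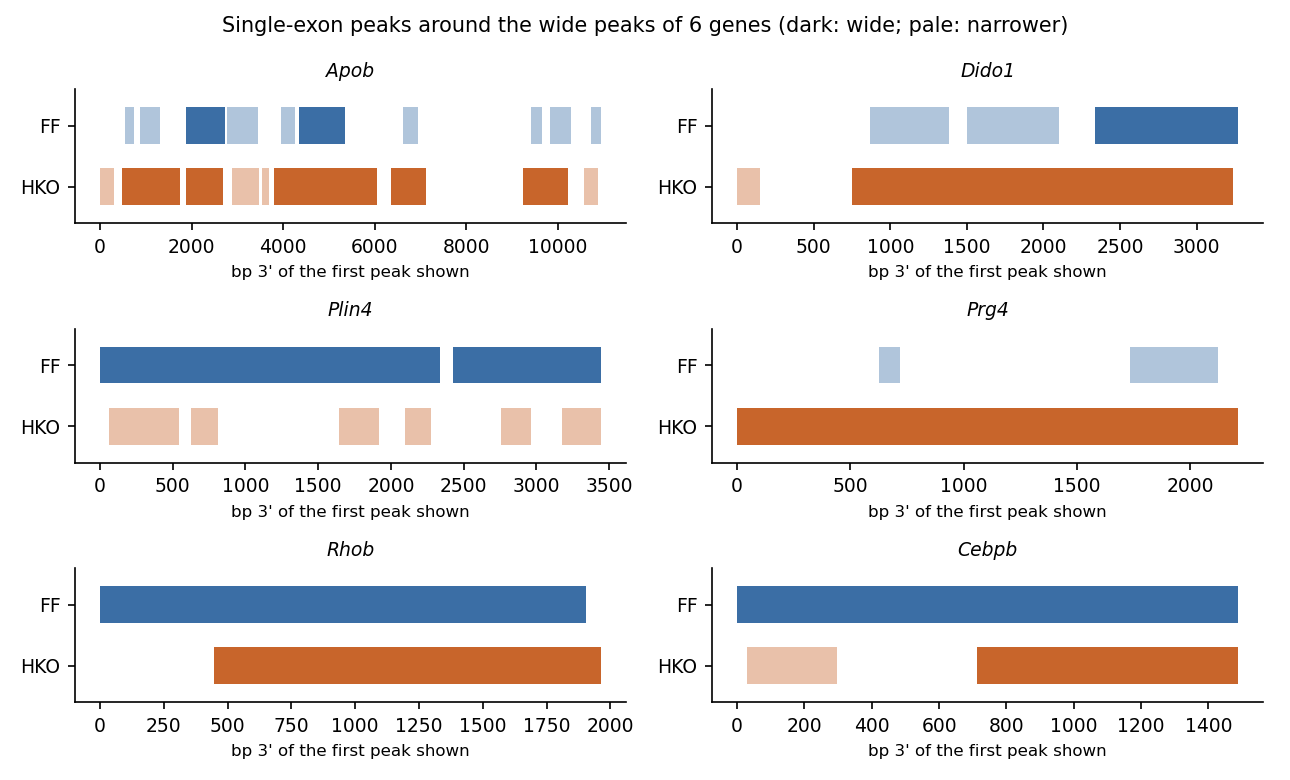
Single-exon peaks around the wide peaks of 6 genes, drawn to scale from 5' to 3' in bp from the first peak shown, FF above HKO, with wide peaks dark and narrower peaks pale. Apob, Dido1 and Prg4 are joined into longer stretches in HKO, Plin4 and Cebpb in FF, and the 2 Rhob peaks differ at their upstream limit.

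Along the gene, wide peaks sat mainly away from the annotated start. Of wide peaks with a position, 29.3% of FF (26.1 to 32.8) and 29.5% of HKO peaks had their centre at most 1000 bp from the end of the gene, and the other single-exon peaks gave 29% and 32.9%. The centre fell within 500 bp of the annotated start for 26 FF peaks (3.70%, 2.54 to 5.37) and 7 HKO peaks (0.854%, 0.414 to 1.75), beside 13.1% and 6.82% of the other single-exon peaks. That measure is tied to width, because a wide peak that begins at the start has its centre well inside the gene. The upstream limit itself lay within 100 bp of the start for 51 FF peaks (7.26%, 5.57 to 9.43) and 16 HKO peaks (1.95%, 1.20 to 3.15). For the narrower single-exon peaks these shares were 9.27% in FF and 4.50% in HKO, so the narrow peaks too reached the start in a larger share in the FF list. The downstream limit lay within 100 bp of the annotated end for 14.2% of wide FF and 15.4% of wide HKO peaks, beside 9.53% and 12.1% of narrower ones.

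All 26 start-centred FF peaks overlapped an HKO peak, but a wide one in 5 cases. On their upstream side, 8 of the 26 (30.8%, 16.5 to 50) had 300 bp or more without any HKO peak, against 2.78% of the wide FF peaks between start and end and 2.91% of those near the end. On their downstream side it was 5 of the 26 (19.2%, 8.51 to 37.9), against 1.92% and 1.46%, so both sides were bare in a larger share than elsewhere. Tysnd1, Cnnm3 and Tle1 had 565, 508 and 419 bp bare downstream. Irf2bp2, a transcriptional corepressor, was 987 bp in FF and began at the start, and HKO had 300 bp, leaving the first 508 bp bare. Trim44, Rnf217 and Trim8, members of the RING and tripartite motif families, had FF peaks of 777, 894 and 778 bp with 388, 387 and 358 bp bare upstream. Sdhaf1, an assembly factor of succinate dehydrogenase, had 938 bp in FF and 616 bp in HKO, which lacked the first 322 bp. Of the 7 start-centred HKO peaks none had such a bare side, which for 7 peaks allows a share of up to 35.4% by the Wilson interval. Library construction and RNA integrity bear on coverage of transcript starts, and their part was not tested.

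**Figure D4:**
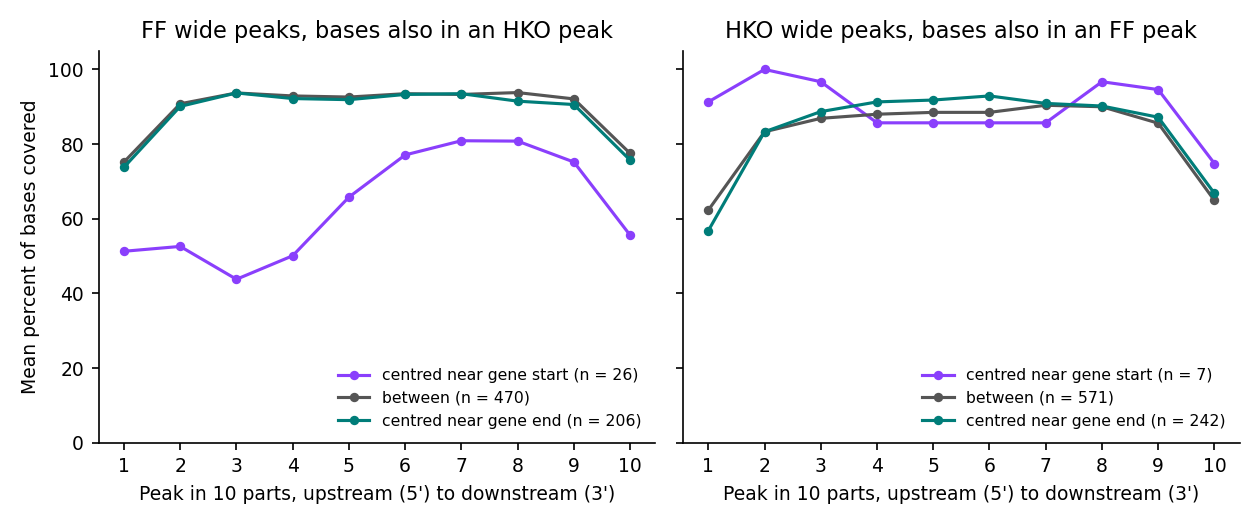
Mean percent of bases that the other list's peaks also cover, in 10 equal parts of each wide peak from 5' to 3', for FF (left) and HKO (right) wide peaks centred near the gene start, near the end or between. In peaks away from the start coverage is lowest at both limits, and in the 26 start-centred FF peaks it is 43.8% in part 3 and 80.9% in part 7.

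Intronless genes and genes with a single coding exon, some of which have further exons (Klf9 and Ppp1r3b among them), were drawn up as 1 list. Of the listed genes with a peak, 18 of 45 in FF (40%) and 18 of 44 in HKO (40.9%) had a wide peak, 15 in both lists. Over all genes with a peak, 8.17% in FF and 9.25% in HKO had a wide one. A gene without introns can only give peaks of 1 block, which the rule asks for, so part of this difference is built in. The gene lists were drawn up with earlier results of these data known, and no test of a list is given. The C/EBP transcription factors, which control metabolic and acute phase genes in liver, had long FF peaks: Cebpa 1588 bp (chr7:35119293-35120880), Cebpb 1488 bp (chr2:167688945-167690432) and Cebpd 1249 bp (chr16:15887286-15888534), all on the plus strand. The HKO list had 2 peaks under each, with a widest of 660 bp on Cebpa, 774 bp on Cebpb and 655 bp on Cebpd. They covered 60.5%, 70.1% and 69.2% of the FF stretch. The FF folds were 16.0, 32.9 and 94.0, and the folds of those HKO peaks 14.1, 17.7 and 53.4. Only the Cebpb counterpart passed the width rule.

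Rhob, a small GTPase of endosome traffic, had 1903 bp in FF and 1517 bp in HKO, and HKO lacked the first 446 bp. Jun was 864 and 745 bp and Ier2 1104 and 1045 bp, both longer in FF. Klf9 (1136 and 1166 bp), Tob1 (921 and 980 bp), Fzd4 (989 and 1468 bp) and Fzd8 (1165 and 1345 bp) were longer in HKO. Zfp36l2 had 989 bp and Ppp1r3c, a glycogen-targeting phosphatase subunit, 892 bp in both. In 26 FF and 18 HKO cases a wide peak filled at least 50% of the whole gene span. The histone gene H1f2 was filled to 100% in FF by a 725-bp peak, Cebpb to 98.0%, and Hnrnpa0, an RNA-binding protein, to 61.1% in FF and 60% in HKO. The acute phase gene Crp was filled to 62.4% in HKO, where FF had a peak of 715 bp under the 1192-bp one. Alyref2 and Rnf113a2 are copies of other genes, and their reads may be shared with the parent gene.

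Chromatin regulators differed most in count between the lists. Wide peaks were found on 9 of 46 listed genes with a peak in FF (19.6%) and on 20 of 48 in HKO (41.7%). The values over all genes were 8.17% and 9.25%. Of the chromatin regulators, 8 were wide in both lists and 12 in HKO alone. Each of those 12 had an FF peak over the same stretch, with a widest of 181 bp (Setd1b) to 690 bp (Setd5). Kmt2e, of the MLL family, was 1440 bp in HKO with a fold of 111, over a widest FF peak of 540 bp. Setd1b, a histone H3 lysine 4 methyltransferase, was 1049 bp in HKO. Kmt2b was 749 bp in HKO and 689 bp in FF, and Tet2, a DNA demethylase, 780 and 511 bp. The histone acetyltransferases Ep300 and Crebbp were wide in both lists, at 931 and 1410 bp and at 1198 and 989 bp in FF and HKO. The 931-bp peak was the wider of 2 FF peaks that covered 93.8% of the HKO peak on Ep300. Kmt2d was 989 bp in FF and 750 bp in HKO. Tet3 was wide in FF alone (1141 bp, with an HKO widest of 391 bp). The difference in count moved with the threshold: at 600 bp or more it was 16 FF against 24 HKO genes, at 800 bp 9 against 14, and at 1000 bp 3 against 5.

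**Figure D5:**
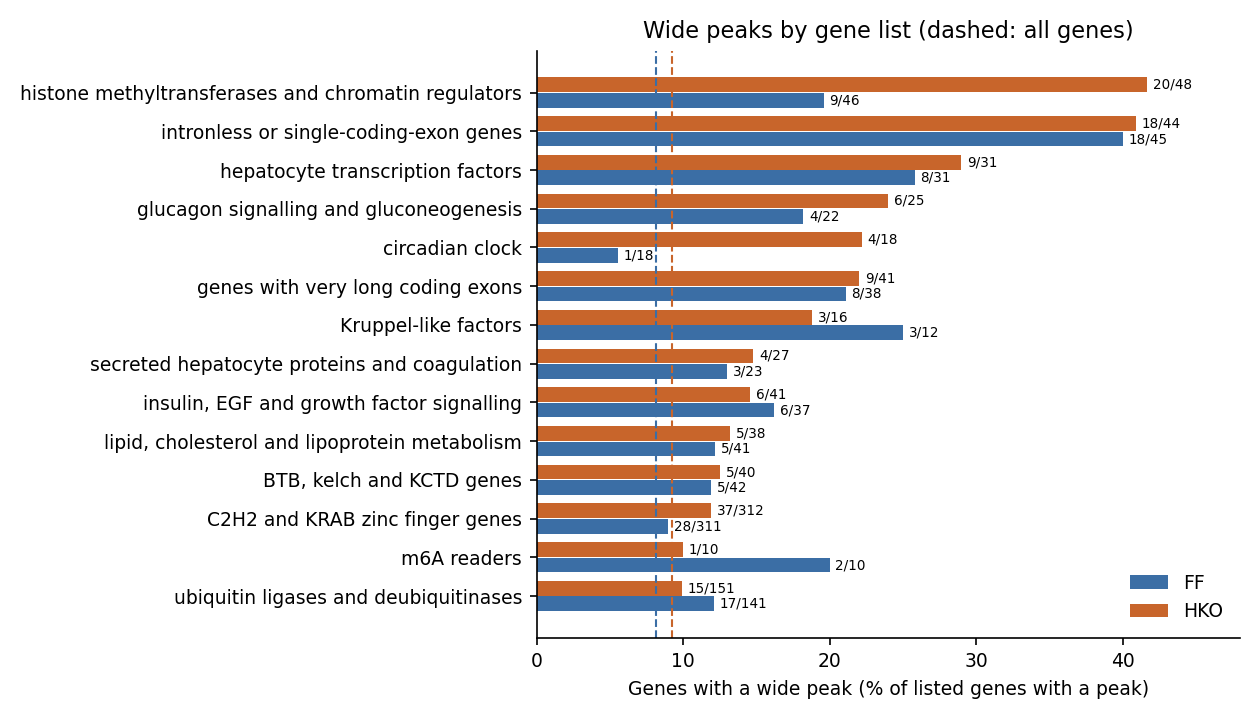
Percent of genes with a wide peak among the genes of each list that had any peak, for FF and HKO, with the numbers at the bars and dashed lines at the value over all genes (8.17% and 9.25%). Genes of the intronless or single-coding-exon list stand at 40% in FF and 40.9% in HKO, and chromatin regulators at 19.6% in FF and 41.7% in HKO.

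Hepatocyte transcription factors carried a wide peak in 8 of 31 genes in FF (25.8%) and 9 of 31 in HKO (29%). Over all genes with a peak the shares were 8.17% and 9.25%. Foxa1, a pioneer factor, was 1409 bp in FF and 1439 bp in HKO with a fold of 32.7 in both. Foxa3 was 990 and 1200 bp. Rxra, the partner of many nuclear receptors, was 1075 bp in FF and 1046 bp in HKO, with folds of 8.37 and 10.6. Tbx3 (807 bp) and Zhx3 (748 bp) had the same width in both lists. Klf15, a glucocorticoid-responsive regulator of gluconeogenesis, was wide in FF alone (958 bp against 599 bp), and Onecut2 (840 against 690 bp) and Nr2f2 (841 against 451 bp) in HKO alone. The 901-bp HKO peak of Foxa2 lay inside an FF peak of 1950 bp that spans more than 1 exon block and is therefore outside the rule.

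Genes of insulin, EGF and growth factor signalling had a wide peak in 6 of 37 with a peak in FF (16.2%) and 6 of 41 in HKO (14.6%). The values over all genes were 8.17% and 9.25%, and 5 of the listed genes were wide in both lists. Of the 7 genes with a wide peak in either list, 4 encode cell surface receptors. Il6ra and Il6st encode the interleukin 6 receptor and its signalling subunit gp130. Il6ra was 1973 bp in HKO, over 2 FF peaks, the wider of 1376 bp, that covered 95.5% of it. Il6st was 1678 bp in FF and 1738 bp in HKO. Lifr was 750 and 870 bp, and Egfr, the receptor of epidermal growth factor, 719 and 809 bp. For all 4 receptors the widest peak was longer in the HKO list, though the Il6ra stretch was nearly all covered in FF in 2 pieces. The HKO peak was also the wider in 264 of all 480 pairs of wide peaks (55.0%), which were chosen by width, and 4 genes are few. Foxo4, a transcription factor held back by insulin signalling, was 989 bp in FF and 929 bp in HKO, starting at the annotated gene start in both. Rictor, a subunit of mTORC2, was wide in HKO alone (1021 against 391 bp), and 1 gene of the list was wide in FF alone.

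Among genes of glucagon signalling and gluconeogenesis 4 of 22 in FF (18.2%) and 6 of 25 in HKO (24%) had a wide peak. Over all genes it was 8.17% and 9.25%. Ppp1r3b, which brings protein phosphatase 1 to glycogen, was 1580 bp in FF and 1521 bp in HKO. The adenylyl cyclase Adcy9 was 960 bp in FF and 990 bp in HKO, with a second wide HKO peak of 810 bp. Ppargc1a, the coactivator PGC-1 alpha, was wide in HKO alone (779 against 241 bp). Clock genes gave 1 of 18 in FF (5.56%) and 4 of 18 in HKO (22.2%). Per2 was 719 and 808 bp, while Bhlhe40 (989 bp) and Nfil3 (779 bp) were wide in HKO over FF peaks of 540 and 659 bp.

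Genes of lipid and lipoprotein metabolism with a wide peak were 5 of 41 in FF (12.2%) and 5 of 38 in HKO (13.2%), beside 8.17% and 9.25% over all genes. Beside Apob, the list held Lpin2, a phosphatidate phosphatase (930 bp in FF, 870 bp in HKO). Acacb, an acetyl-CoA carboxylase, was 960 bp in HKO with a fold of 6.12, over an FF widest of 630 bp. Abundant secreted proteins gave 3 of 23 (13%) and 4 of 27 (14.8%). Fga, the fibrinogen alpha chain, was 985 bp in FF and 1045 bp in HKO, F7 807 and 987 bp, and Hp, haptoglobin, 718 and 748 bp. Cyp8b1, the sterol 12-alpha-hydroxylase of bile acid synthesis, which has no intron, held 2 wide peaks in each list.

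Of 9 m6A writer genes with a peak, 2 had a wide one in each list (22.2%), beside 8.17% and 9.25% over all genes. Zc3h13 was 780 bp in FF and 720 bp in HKO, Rbm15b was wide in FF alone (751 against 661 bp) and Rbm15 in HKO alone (931 against 511 bp). Of 10 reader genes with a peak, 2 in FF (20%) and 1 in HKO (10%) had a wide one. Ythdf1 was 1257 bp in FF and 1436 bp in HKO, and Ythdf3 was 1017 bp in FF inside a 1972-bp HKO peak of more than 1 block. The 2 eraser genes gave 1, the Alkbh5 peak of FF described above.

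Zinc finger genes, many of which encode their finger array in 1 long exon, gave 28 of 311 in FF (9.00%) and 37 of 312 in HKO (11.9%), 15 in both lists, close to the share over all genes (8.17% and 9.25%). Zfp146 was 1169 and 1229 bp, Zfp639 1080 and 1110 bp, and Zbtb18 1620 and 1050 bp in FF and HKO. Reads of near-identical finger arrays can be shared between paralogs, so these limits are uncertain. Ubiquitin ligases and deubiquitinases gave 17 of 141 in FF (12.1%) and 15 of 151 in HKO (9.93%), with Rnf103 at 1520 and 1490 bp and Rnf139 at 1850 and 1074 bp. The 1074-bp peak was the wider of 2 HKO peaks that covered 90.4% of the FF peak on Rnf139. The BTB and kelch list gave 5 of 42 (11.9%) and 5 of 40 (12.5%). The shares were higher for Kruppel-like factors, with 3 of 12 in FF (25%) and 3 of 16 in HKO (18.8%). They were also higher for genes chosen for very long coding exons, with 8 of 38 (21.1%) and 9 of 41 (22%). Both lists hold few genes, and the rule asks for a long stretch in 1 exon, which builds in part of the second. Long non-coding RNA genes carried 3.70% of wide FF and 3.17% of wide HKO peaks, beside 4.8% and 4.72% of all peaks. The share among wide peaks was thus not above that of all peaks in either list. Malat1 had a peak of 1289 bp with the same limits in both lists, and Neat1 had peaks of 1500 and 1489 bp in FF and of 1350 and 1311 bp in HKO that overlap each other.

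Whole liver holds several cell types, and fewer cells of a type cannot be told apart from less RNA per cell in such samples. Hepatocyte markers had a peak in 9 (FF) and 12 (HKO) of 15 genes, and Trf and Asgr1 had none in either list. A peak does not measure a level, and these counts do not set hepatocytes apart from the other cells. Markers of other cells also had peaks: Kupffer cells and macrophages 7 of 12 in each list, endothelium 8 of 11 in each and stellate cells 7 and 8 of 11. Cholangiocytes gave 2 of 7 in each and leukocytes 1 of 10 in each. Among those without any in either list were Vsig4, Adgre1, Cd68 and Timd4 of macrophages, Stab1, Stab2 and Clec4g of endothelium, and Ptprc and Cd3e of leukocytes. Endothelial genes held wide peaks in 3 of 8 (FF, 37.5%) and 4 of 8 (HKO, 50%), few genes, beside 8.17% and 9.25% over all genes. Cdh5, the adhesion protein of endothelial junctions, was 1258 and 1198 bp, Eng 804 and 1131 bp, and Bmp2 839 and 900 bp. Clec4f, a Kupffer cell lectin, was wide in FF alone (840 against 540 bp). The part of cell composition in any list difference was not tested.

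By gene, 1015 genes had a wide peak in at least 1 list: 461 in both (45.4%), 223 in FF alone and 331 in HKO alone. For genes in 1 list alone the counterpart was usually a shorter peak over the same stretch. Its median width was 540 bp in either direction, with a missing counterpart entered as 0 bp. In 28.4% of FF and 29.6% of HKO cases the counterpart was 600 to under 700 bp. In 12% and 13.8% it was under 350 bp or missing. Among the wide HKO peaks least covered in FF, Ankrd17 (811 bp, fold 34.8) had an FF peak of 91 bp, Aspg (719 bp, fold 4.61) one of 91 bp, and C1s1, a complement protease (899 bp, fold 16.4), one of 151 bp. Among the wide FF peaks least covered in HKO, Pja1 (864 bp, fold 4.93), Tysnd1 (744 bp, fold 21.5) and Ppp3ca (749 bp, fold 19.6) had HKO peaks of 180, 179 and 181 bp. With 1 pool per genotype the difference has no replicate check.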

How the data were processed

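Liver RNA was profiled in 4 libraries, an IP and an input per genotype, sequenced as 150-bp read pairs. The titles gave the groups. The series design text says that the authors used exomePeak 2.16.0, IP against input within a genotype, and kept q-values up to 0.05. Build GRCm38.p6, BWA 0.7.12, fastp 0.19.11 and HOMER 4.9.1 come from the submitters' processing notes. The deposited lists give a p-value, the log10 q as a score without a lower bound (some at minus infinity) and the fold, a ratio of IP over input. The design text names a Synaptic Systems antibody and a New England Biolabs kit, the sample protocols a Millipore antibody and a NuGEN kit, and this was not settled.

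Starts in the lists count from 0 and were turned to base 1. Wide peaks have 1 block of 700 bp or more. Peaks overlap if blocks share 1 bp or more on the same strand. Gene spans and start windows are from RefSeq, by symbol, and 1 wide HKO peak had no position. The tools were matplotlib 3.10.9, scipy 1.17.1, numpy 2.4.6 and pandas 2.3.3 under Python 3.11.15, and shifted copies of real peaks were used to check the overlap code.

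The members and gene lists were chosen with earlier results of these data known. Genes were named by a rule: the widest, the highest fold, the smallest q, those with no or the least overlap, those over the most pieces, genes with the most wide peaks, those beside the threshold, and members of the gene lists. Rbbp6, Tlcd1, Rangap1, Kansl2, Naa80, Msl1, 4430402I18Rik and the start-centred peaks were added after their values were seen. Other widths, q, fold, block and overlap rules were tried. Motif density in whole peaks needs a genome and was not analysed here.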

Additional observations from a re-analysis of the deposited data

How the results depend on the processing

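No paired analysis was possible because each genotype has 1 pool and 1 IP library and no test was made. Of 115 alternative values, 82 stayed within 1.5 times the main count or within the main 95% interval and 33 moved; the cause was not tested beyond what each setting builds in. At 600 bp or more there were 1058 FF and 1263 HKO wide peaks, 717 genes with one in both lists and 16 FF chromatin regulators. At 1000 bp or more there were 205 and 251 peaks, 130 genes in both lists, 72 in FF alone and 117 in HKO alone, 3 FF and 5 HKO chromatin regulators and 9 HKO intronless genes. At that width all peaks overlapped the other list (100% in both), 53.0% of HKO peaks overlapped a wide FF peak, median folds were 19.9 and 24.6, 22.4% and 21.5% were centred near the end, and 0% near the start in both lists, which the width itself builds in. With start and end windows of 200 and 500 bp, 9.83% and 10.4% were near the end and 0% near the start in both lists. Any overlap fell to 98.6% and 97.1% when both lists were held to q up to 1e-05, to 95.9% and 95.1% at 1e-10, and to 88.3% and 83.8% where 50% of the longer peak had to be shared. Summing all counterparts moved their median width from 839 to 870 bp for FF and from 776 to 810 bp for HKO peaks. The settings for chromatin and intronless genes and the overlap of whole spans were chosen after seeing the data. The GGACT alternative for whole peaks was not run, for want of a genome. Depth is unknown and limits which stretches are joined.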
